A study of Glycine max with 46 samples.

Results

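W55 is a soybean (Glycine max) line of the Williams background with a black seed coat, whose labels give an i mutation and a 138 kb deletion at the i locus. Its coats from seeds of 300-400 mg and 400-500 mg fresh weight were compared with those of W43, yellow-coated Williams with a black hilum and the genotype i-i RT w1, and with those of W44, a second black-coated Williams line that carries an i inversion and the genotype i RT w1. There is 1 RNA-seq library for each line and weight, so that W55 contributes 2 libraries of the 6 in the main comparison and of 46 in the whole series. The labels of the 2 late W55 libraries give the genotype i-i RT w1, whereas the younger W55 coats and whole seeds are given i R w1 and the W55 root iRT w1. The phenotype and deletion entries of the late libraries are those of the mutant, and the transcripts of the locus, described first, followed those entries. All 3 lines were grown in a greenhouse, and seeds were dissected by hand. The 2 weights of a line served as its replicates, no label says whether they came from separate plants, and p-values therefore measure only the spread between such libraries.

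Chalcone synthase makes the first committed intermediate of the flavonoid pathway, from which the anthocyanins and proanthocyanidins of dark seed coats are built. In yellow soybeans a clustered, partly inverted arrangement of chalcone synthase genes at the I locus is the source of short RNAs by which chalcone synthase is silenced in the seed coat, and recessive i alleles that disrupt the cluster restore pigment. As a coat ages, its cells stop dividing, its reserves are moved to the embryo, and transcripts of desiccation, stress and late seed programmes accumulate.

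The authors' RPKM (reads per kilobase of model, scaled to the library total) of 56044 genes, each taken from its longest cDNA model, were rescaled by median ratios and compared as log2(RPKM + 1), a scale that understates the change of genes with low values. The 6 late libraries held 93.3 to 116.1 M (10 to the power 6) counted alignments, recovered from the values, and rescaling factors lay between 0.968 and 1.024, so depth was similar across lines. A total of 27185 genes with a mean of at least 1 RPKM were tested with limma, with seed weight as a block. Against W43, 990 genes (3.64% of those tested) were higher and 859 (3.16%) lower in W55 at a Benjamini-Hochberg adjusted p under 0.05. Against W44 the counts were 3171 higher (11.7%) and 2764 lower (10.2%), and against the mean of both references 665 higher (2.45%) and 528 lower (1.94%). On the deposited values without rescaling the first comparison gave 1381 higher and 726 lower. These counts rest on 2 residual degrees of freedom. No gene was called against W43 when the W43 library of 400-500 mg, either W44 library or either W55 library was left out, and 1000 were called without the W43 library of 300-400 mg. A fit of 12 libraries, which added coats of lighter W43 and W44 seeds at weights where W55 has no library, called 6 genes against W43. The limma-voom fit on recovered reads called 2104. Gene calls below are those of the fit to 6 libraries and carry this limit throughout.

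At the locus, 3 neighbouring genes on chromosome 8 had at least 1 RPKM in every W43 and W44 library and at most 5% of those levels in W55, and no other gene met that rule. Glyma.08G109700, described as DNAJ-like 20, a co-chaperone-type protein, stood at 19.95 and 20.1 RPKM in W43 at 300-400 mg and 400-500 mg, at 19.4 and 21.8 RPKM in W44, and at 0.161 and 0.178 RPKM in W55. Its W55 level was below 1% of every reference library, with 16 and 18 reads against 1869 to 2688. Glyma.08G109800, a low-molecular-weight cysteine-rich protein of the family that holds defensin-like peptides, had 7.16 and 5.00 RPKM in W43, 60.0 and 43.11 RPKM in W44, and 0.0292 and 0.0288 RPKM in W55, the latter from 2 reads in each library. W44 was the highest of the 3 lines for this gene, and the lines did not overlap. Glyma.08G109900, a cytochrome P450 of subfamily CYP71B, had 3.20 and 4.22 RPKM in W43 and 14.1 and 13.9 RPKM in W44. No read of it was found in either W55 library, which against 3 reads per library as the floor makes it at least 185-fold lower than in any reference library. For the first of the 3, the difference from W43 was -4.17 ± 0.07 (SE) on the log2 scale, the adjusted p by limma was 0.00713, and the same difference from W44 was -4.21.

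The 3 lost genes lay inside a longer stretch. In order of gene identifier, 15 successive tested genes from Glyma.08G109200 to Glyma.08G110900 were called lower in W55 against both references, and the next longest such run in the genome held 3 genes. The identifiers in that interval number 18, of which 3 had too little signal to be tested. Of the 15, 9 are chalcone synthase genes and 6 are not. The chalcone synthase genes of the stretch were at 6.79% to 15.8% of W43 in W55, with a median of 12.7%, and at 8.13% to 11.2% of W44. Glyma.08G109600, a protein with an RNA recognition motif, had 7.68 and 8.86 RPKM in W43, 9.29 and 10.6 RPKM in W44, and 0.672 and 0.695 RPKM in W55. Its 2 W55 values were nearly equal and lay far below all 4 reference values. Glyma.08G110100, which has no description, was at 5.40 and 5.83 RPKM in W43 and 0.893 and 0.985 RPKM in W55, and Glyma.08G110600, also undescribed, was at 4.50 and 5.15 RPKM in W43 and 0.775 and 0.929 RPKM in W55. Glyma.08G110800, too low to be tested, had 50 and 45 reads in W43, 20 and 18 in W44 and none in W55.

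Genes on either side of the stretch were expressed in W55 at higher shares of the references. On the right, Glyma.08G111000, beta-galactosidase 9, an enzyme of cell wall sugars, had 6.64 and 7.48 RPKM in W43 and 7.39 and 7.23 RPKM in W55, with 6.12 and 7.09 RPKM in W44, and the difference was called against neither reference. On the left, Glyma.08G109100, UDP-D-glucuronate 4-epimerase 6, an enzyme that makes a pectin precursor, had 19.4 and 23.2 RPKM in W43, 11.2 and 18.6 RPKM in W44, and 8.93 and 11.4 RPKM in W55. The gene beyond it, Glyma.08G109000, a subtilase, was at 26.9 and 21.8 RPKM in W43, 65.4 and 47.02 RPKM in W44, and 17.3 and 12.9 RPKM in W55. The W55 levels of these 2 left-hand neighbours were 26.4% to 79.8% of the references. The subtilase was called lower against both, and the epimerase against W43 alone. Further out, Glyma.08G108900, serine hydroxymethyltransferase 4, on the left and Glyma.08G111100, a methyltransferase, on the right were called lower than W44, at -0.79 and -0.43, and not against W43. Over 11 tested flanking genes on both sides, the W55 level had a median of 92.9% of the references and a highest value of 143%.

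**Figure D1:**
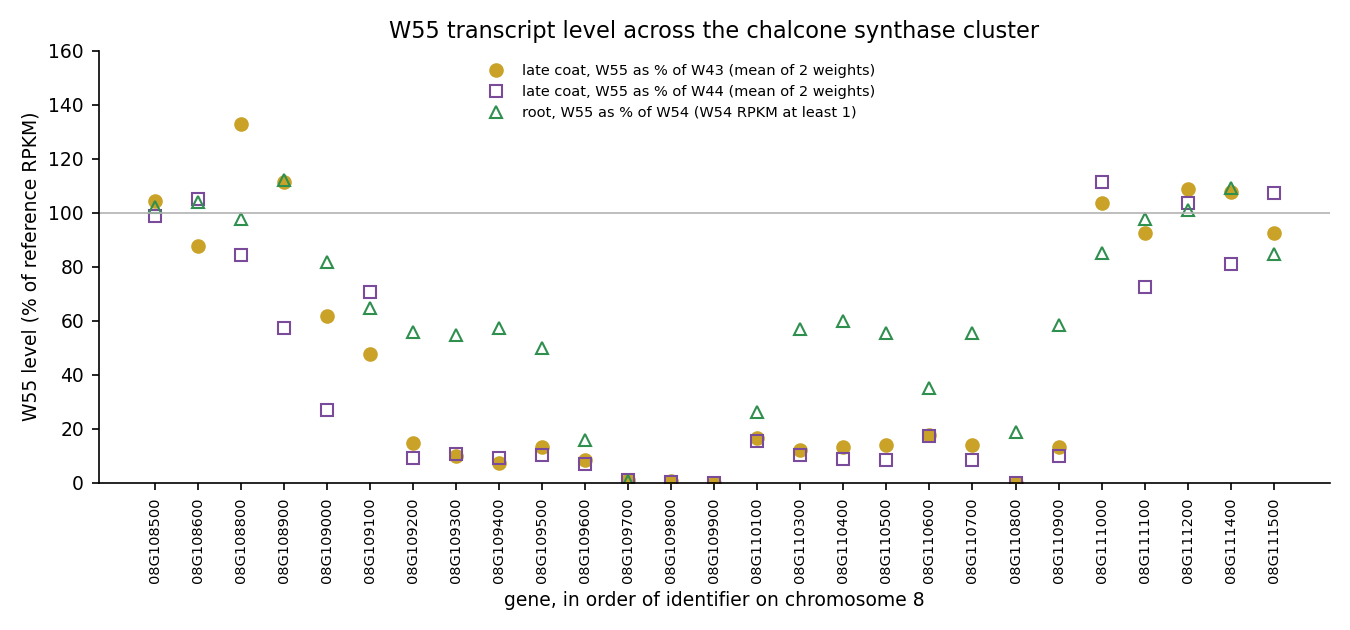
W55 transcript level as a percentage of W43 (filled circles) and W44 (open squares) in late seed coats, each the mean of the percentages at 2 seed weights, and of W54 in roots (open triangles, 1 library each), for genes in order of identifier around the chalcone synthase cluster of chromosome 8. The 3 lost genes sit at or below 1% in coats, the chalcone synthase genes near 10% in coats and 50% to 60% in roots, and the flanking genes on the right around the 100% line.

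Libraries that entered none of those tests showed the same genes low. Roots were sampled from W55 and from W54, which the labels equate with W43, with 1 library each. Glyma.08G109700 had 4.10 RPKM in the W54 root and 0.0273 in the W55 root, or 0.665% of it. Glyma.08G109600 was at 7.88 RPKM in W54 and 1.23 in W55, Glyma.08G110100 at 4.94 and 1.29, and Glyma.08G110600 at 4.92 and 1.73. All 13 genes of the stretch with at least 1 RPKM in the W54 root were lower in the W55 root, and 5 of them were at 50% or less, against 293 (0.963%) of 30411 genes. The 9 chalcone synthase copies of the cluster stood at higher shares of the reference in roots than in coats, at 50.0% to 59.9% of W54. Chalcone synthase copies are near identical, and signal of the cluster and reads drawn from other copies cannot be told apart there. The 11 flanking genes had a median of 97.8% in the root.

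In young coats of another cultivar, the genes of the stretch other than chalcone synthases were low as well. UC9 is a Clark line labelled with the same deletion, and its coats at 5-6 mg were set beside those of 2 Harosoy lines, UC501 and UC508, which differ from it in cultivar and at other colour loci as well. UC508 is labelled as a Harosoy isoline with defective seed coats. Glyma.08G109700 had 0.307 RPKM in UC9, 7.64 in UC501 and 7.12 in UC508. Glyma.08G109800 had 0.0676 RPKM in UC9, 41.7 in UC501 and 38.1 in UC508, so that the gene was abundant in young yellow coats and near 0 in the deletion line. Glyma.08G109600 was at 9.14% of UC501 and 9.47% of UC508. The cluster's chalcone synthase copies had medians of 47.5% of UC501 and 50.8% of UC508, well above their median of 12.7% of W43 in late W55 coats. Reads drawn from other copies cannot be told apart from signal of the cluster here either. In the 4 young W55 libraries, 2 of coats at 5-6 mg and 2 of whole seeds at 5 days after flowering, Glyma.08G109700 and Glyma.08G109800 were both listed at 0. In the 2 young coat libraries, 88.6% and 80.6% of alignments fell in models without a description, and flanking genes there ranged widely, with 4.52 and 7.37 RPKM for Glyma.08G108500 but 0.320 and 0.761 RPKM for Glyma.08G111000.

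Chalcone synthase transcripts moved in opposite directions at different chromosomal positions. Summed over the 9 chromosome 8 copies, W43 had 50.4 and 86.4 RPKM at 300-400 and 400-500 mg, W44 72.1 and 108.7, and W55 6.50 and 10.4. All 4 reference sums exceeded both W55 sums. The log2 ratio to W43 was -2.95 at the lower and -3.05 at the higher weight, an 8.01-fold lower level on average, with an SD of 0.07 between weights, and the level was 10.7-fold below W44. The copies are near identical, and the authors' handling of reads that match several of them is not given in the sources used here. Recovered reads were almost equal on some of them. In W43 they were 730 and 1448 on Glyma.08G110500, 729 and 1449 on Glyma.08G110700, and 725 and 1447 on Glyma.08G109200. Sums over copies may therefore count the same reads more than once. Residual signal on these copies in W55 and reads drawn from other copies cannot be told apart.

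The copies on chromosomes 1 and 11 were higher in W55. Glyma.01G228700 had 13.9 and 5.68 RPKM in W43, 22.8 and 28.7 RPKM in W44, and 109.6 and 130.9 RPKM in W55. Glyma.11G011500 had 8.81 and 3.67 RPKM in W43, 13.3 and 17.7 RPKM in W44, and 67.8 and 79.7 RPKM in W55. For both genes W55 was the highest line at each weight and W43 the lowest, without overlap. For the second gene the fitted difference from W43 was 3.46 ± 0.40 (SE) on the log2 scale, and for both genes the adjusted p by limma against W43 was 0.0363. The differences from W44 were 2.18 and 2.19, with adjusted p of 0.0363 and 0.0340. The sum of the pair was 7.83-fold that of W43 at 300-400 mg and 22.5-fold at 400-500 mg, where W43 was lower than at the earlier weight.

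The sum over all 24 chalcone synthase genes was higher in W55, at 187.5 and 226.9 RPKM, than in W43, at 77.3 and 101.6 RPKM, or in W44, at 114.1 and 163.6 RPKM. Reads counted on several copies would enter these sums more than once, so the ratios below are of summed RPKM and not of transcript amounts. The ratio to W43 was 2.43 and 2.23 at the 2 weights, a mean log2 ratio of 1.22 with an SD of 0.08. The ratio to W44 was smaller, 1.64 and 1.39. With 2 weight pairs, the exact two-sided sign-flip test of each ratio gave p = 0.5, the smallest value this design allows, so no call can be made from it. The other 13 copies summed to at most 8.58 RPKM in any of the 6 libraries.

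**Figure D2:**
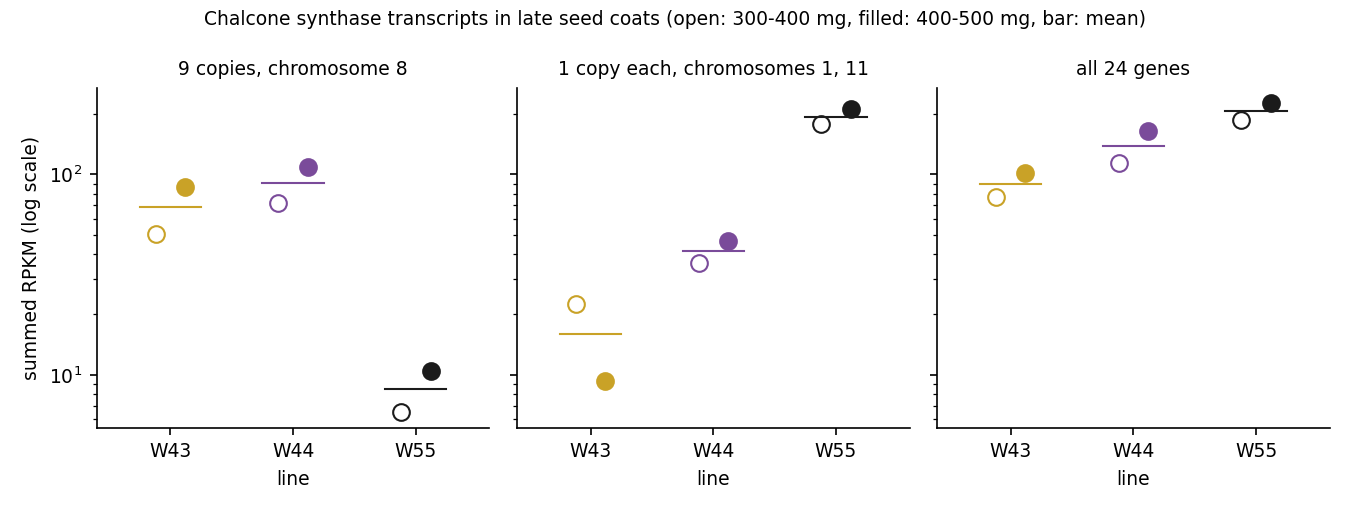
Summed RPKM of chalcone synthase genes (log scale) by line in late seed coats, with 1 library per point, open symbols for 300-400 mg, filled symbols for 400-500 mg and bars for the mean of the 2. W55 has the lowest chromosome 8 sums, 6.50 and 10.4, and the highest sums for the chromosome 1 and 11 copies.

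The make-up of the summed chalcone synthase RPKM, in which reads may be counted on several copies, separated W55 from both references in late coats. The chromosome 1 and 11 copies made up 94.6% and 92.8% of the deposited chalcone synthase RPKM in late W55 coats, 29.3% and 9.2% in W43, and 31.7% and 28.3% in W44. In W55 coats at 5-6 mg they made up 96.5% and 96.3%, in W55 whole seeds 87.4% and 89.4%, and in UC9 young coats 92.7%. W44, also black, was at 71.3% to 75.4% in its 4 libraries of 10-100 mg coats, so its share was higher in early than in late coats. In T157, another line labelled with an i mutation, the share was 78.7% and 65.5% in late coats and 79.9% and 86.7% in early coats. It was 94.5% in the 25-50 mg coat of RM38, a brown-coated Clark i isoline. High shares were thus not particular to W55 and UC9. The W55 root had 59.3% beside 48.5% in the W54 root.

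Genes of the pathway below chalcone synthase stood in W55 nearer to W43 than to W44. Flavanone 3-hydroxylase, which acts after chalcone isomerase, is represented by Glyma.02G048400, with 121.4 ± 22.1 RPKM (SD, n = 2) and a lower value of 105.7 RPKM in W43, 27.4 and 28.5 RPKM in W44, and 82.7 and 107.5 RPKM in W55. W44 was lowest, and the W55 and W43 values overlapped. The difference from W44 was 1.72 on the log2 scale with an adjusted p by limma of 0.0195, and that from W43 was -0.35 with an adjusted p of 0.296. Dihydroflavonol 4-reductase, which leads towards anthocyanins, is represented by Glyma.14G072700, with 71.6 and 29.7 RPKM in W43, 7.63 and 7.96 RPKM in W44, and 44.9 and 55.8 RPKM in W55. Over the 18 tested genes of the flavonoid list, 9 were called higher and 1 lower against W44, beside 11.7% and 10.2% of all genes, with a median log2 difference of 0.58. Against W43, 0 were called higher and 1 lower, beside 3.64% and 3.16% of all genes, with a median of -0.20. The medians over all 27185 genes were -0.00871 against W44 and -0.0013 against W43. The 1 gene called against W43 was Glyma.17G252200, another dihydroflavonol 4-reductase, with 18.6 and 15.9 RPKM in W43, 2.85 and 3.22 RPKM in W44, and 3.67 and 6.96 RPKM in W55, a difference of -1.58 ± 0.25 (SE) with an adjusted p of 0.0480. The general phenylpropanoid enzymes that feed the pathway held 1 called gene of 13 against W43, Glyma.14G205200, cinnamate 4-hydroxylase, at -0.49.

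Genes that changed with seed weight in 2 other lines were used as a measure of coat maturation. Richland, a yellow line with the genotype I R t, and T157, an imperfect black line with the genotype i R t, were sampled at the same 2 weights and share no library with W55, W43 or W44. In both, 42 genes were at least 1 higher (log2) and 87 at least 1 lower at 400-500 than at 300-400 mg, with at least 5 RPKM in the higher library of each. These sets, called rising and falling below, were then followed in the 3 Williams lines. The rising genes had a median increase of 2.87 in W43 and 1.33 in W44 between the 2 weights, and of 0.06 in W55. All 42 were higher at the later weight in W43, 39 in W44 and 22 in W55. Their median level went from 2.09 to 27.9 RPKM in W43, from 7.67 to 18.8 RPKM in W44, and from 0.774 to 1.46 RPKM in W55. The falling genes had median changes of -2.28 in W43, 1.18 in W44 and -0.71 in W55.

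**Figure D3:**
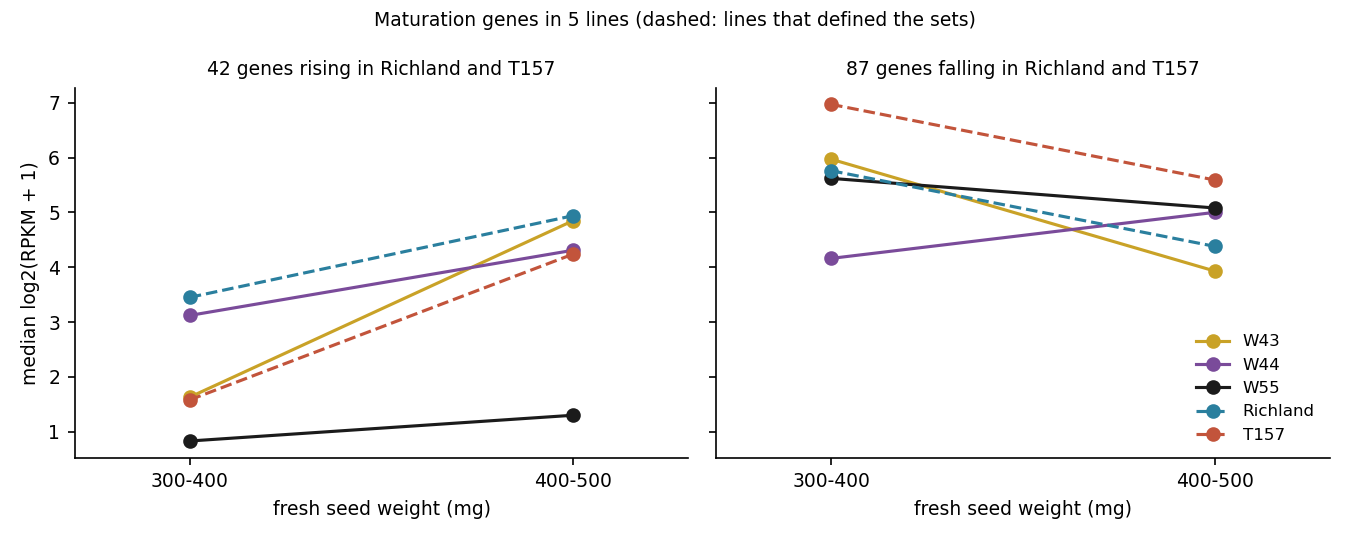
Median log2(RPKM + 1) of 42 rising genes (left) and 87 falling genes (right) at 2 fresh seed weights in each line, with 1 library per point; dashed lines mark Richland and T157, which defined the sets. The W55 line lies below every other library in the left panel, at 0.83 for the lower weight.

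Set against W43 at the same weight, W55 was lower in 36 of the 42 rising genes at 300-400 mg, with a median difference of -0.42. Median levels there were low, 2.09 RPKM in W43 and 0.774 RPKM in W55, where the log2(RPKM + 1) scale understates the change. At 400-500 mg the rising genes were 3.33 lower in the median, and all 42 genes were below W43. The falling genes were 0.86 lower at the first weight and 0.83 higher at the second. Against W44 the rising genes were 1.73 and 3.14 lower. A maturation score, the median of the rising minus that of the falling genes on the log2 scale, was -4.80 and -3.77 in W55, -4.35 and 0.93 in W43, and -1.05 and -0.69 in W44. The W55 scores lay around that of W43 at 300-400 mg and far below that at 400-500 mg. In W44 the falling genes had a median increase with weight, so the sets did not behave alike in all lines. Whether the score orders these lines by maturation was not tested. The mean difference of W55 from the other 4 libraries was -3.00, with an exact two-sided permutation p of 0.267 over 15 assignments, of which 0.0667 is the smallest possible. Of the 42 rising genes 39 passed the filter on low values and none was called against W43; of the 87 falling genes 85 passed and 3 were called higher. The wide difference between the 2 W43 weights enters the error of each such gene.

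The named genes at the top of the rising set show the pattern one at a time. Glyma.13G278000, a low-molecular-weight cysteine-rich protein, went from 4.74 to 622.0 RPKM between the 2 weights in W43 and from 90.1 to 619.5 RPKM in W44, and was at 1.12 and 0.537 RPKM in W55. Glyma.01G119600, a stress-induced protein, had 2.11 and 62.9 RPKM in W43, 7.77 and 27.3 RPKM in W44, and 0.279 and 0.788 RPKM in W55. Neither was called. The other 3, Glyma.10G060800, Glyma.10G061000 and Glyma.10G061800, are thaumatin-type pathogenesis-related proteins of similar values that may share reads, with 6.18 to 8.78 RPKM in W43 at 400-500 mg and at most 0.0429 RPKM in W55. Among the most falling genes, Glyma.14G032800, a lipid-transfer-type protein, had 8.36 and 0.793 RPKM in W43, 1.11 and 0.384 RPKM in W44, and 42.4 and 8.14 RPKM in W55, where the later library was level with the earlier W43 library. Glyma.09G233900, a GDSL lipase, had 29.7 and 2.27 RPKM in W55 and at most 2.63 RPKM in W43.

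**Figure D4:**
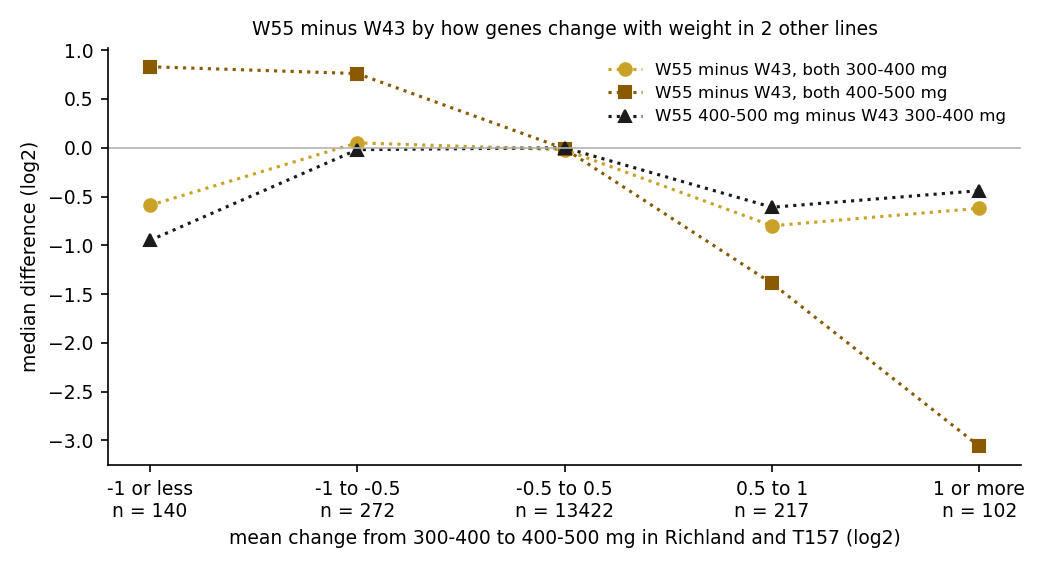
Median log2 difference between W55 and W43 for genes with at least 5 RPKM in a Richland or T157 late coat, binned by their mean change with weight in those 2 lines, for libraries of equal weight and for W55 at 400-500 mg against W43 at 300-400 mg. The median falls to -3.06 in the most rising bin at equal weights of 400-500 mg and is -0.44 there against the lighter W43 seeds.

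Comparing W55 at 400-500 mg with W43 one weight class earlier, a comparison chosen after seeing the data, brought the rising genes to a median of -0.41 and the falling genes to -1.51. Across all genes with at least 5 RPKM in either library, 3.46% differed by at least 1 (log2) in that comparison, 3.94% between W55 and W43 both at 300-400 mg, and 8.76% both at 400-500 mg. The 2 W55 libraries differed from each other at 1.25% of genes, beside 5.30% between the 2 W43 libraries and 2.36% between those of W44. By these counts the 2 W55 coats were the most alike pair of the 15, and W43 at 300-400 mg was the closest library outside the line to each.

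The called genes leaned the same way. Of the 859 genes called lower than W43, 60.5% had higher values at the later weight in both Richland and T157 and 129 of them lower values in both. The shares over all tested genes were 33.9% and 31.4%. Of the 990 called higher, 14.5% increased in both lines and 58.0% decreased in both. Among genes called in the same direction against W44 as well, the share that increased in both lines was 69.2% of 237 lower genes, and the share that decreased was 65.1% of 301 higher genes. None of the 859 or 990 genes other than 3 higher ones belonged to the rising or falling set. The median change with weight in Richland and T157 was 0.13 among the lower and -0.10 among the higher genes.

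A stricter grouping kept genes at least 1 apart (log2) from both references at both weights in the same direction, with at least 5 RPKM in the higher library of each pair. It held 55 genes lower in W55 (0.202% of tested genes) and 42 higher (0.154%). Of the 55 lower genes, 9 lay in the chromosome 8 stretch, and their median change with weight in Richland and T157 was -0.12. A further 10 belonged to the rising set, and 31 increased in both lines without meeting the rule of the set, with a median change of 1.01. The remaining 5 did neither. Of the 42 higher genes, 6 belonged to the falling set, 17 decreased in both lines without meeting its rule, and 19 did neither. In the median, the rising-set members differed from W43 by -1.95 at 300-400 mg and -3.93 at 400-500 mg, and from W44 by -3.43 and -2.77. The genes of the stretch differed from W43 by -2.00 and -2.36, and from W44 by -2.55 and -2.77. With W43 at 300-400 mg as the W43 reference for both W55 libraries, 37 of the 55 and 30 of the 42 still met the rule.

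**Figure D5:**
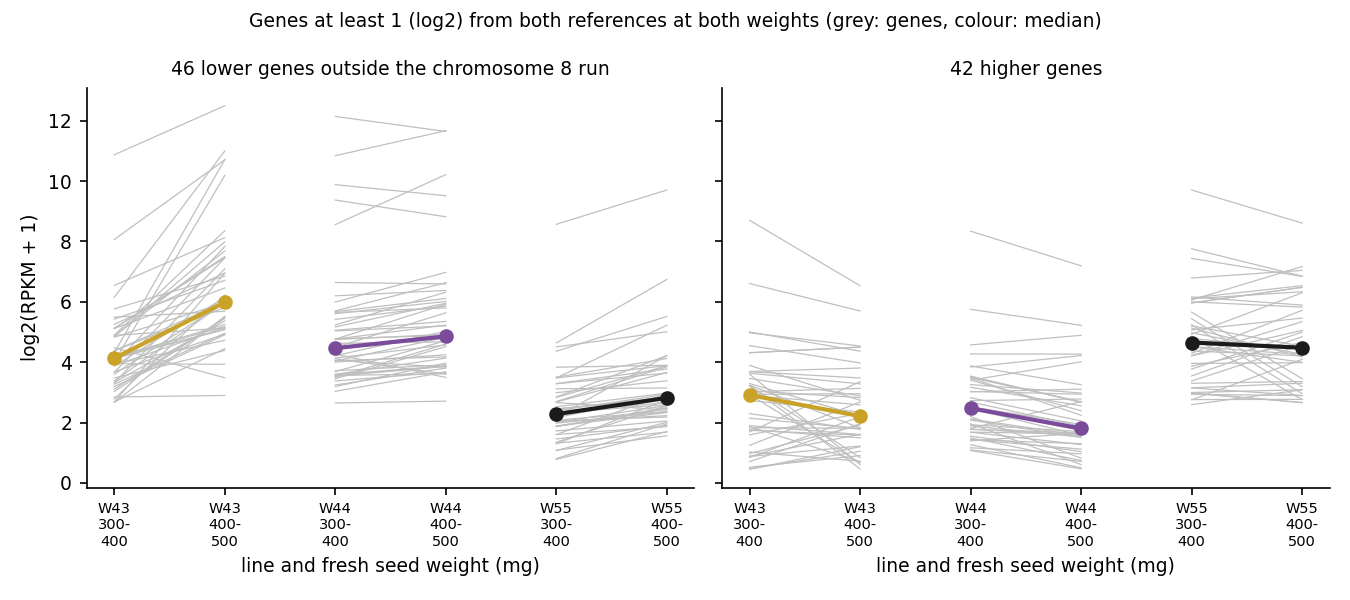
log2(RPKM + 1) of the genes at least 1 apart from both references at both weights in each of 6 late libraries: 46 lower genes outside the chromosome 8 stretch (left) and 42 higher genes (right), with grey lines for single genes and coloured lines for the median of each line. The grouping itself used these values; the left panel shows the W43 medians increasing with weight and the W55 medians below both references.

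The lower genes include some of late seed programmes. Many late embryogenesis abundant (LEA) proteins and dehydrins protect cells during drying. The list was made by description and also holds genes of the LEA hydroxyproline-rich glycoprotein family, so its counts and medians mix gene families. Of its tested members, 11 are among the 55 genes of the stricter lower group, which held 0.202% of all tested genes. Of 66 tested members, 11 were called lower and 3 higher than W43, beside 3.16% and 3.64% of all genes, with a median difference of -1.12. Against W44, 4 were called lower and 3 higher, smaller shares than the 10.2% and 11.7% of all genes, with a median of -0.64. At 300-400 mg 20 of them were at least 1 below W43, at 400-500 mg 38, and in the comparison of W55 with the lighter W43 seeds 12. Higher values at the later weight in both Richland and T157 were found for 34 of the 66 members, 51.5%, beside 33.9% of all tested genes. Glyma.10G027600, a seed maturation protein, had 42 and 103.8 RPKM in W43, 26.3 and 28.7 RPKM in W44, and 6.14 and 13.8 RPKM in W55. W55 was below both references at each weight. The difference was -2.71 ± 0.31 (SE) from W43, with an adjusted p by limma of 0.0361, and -1.47 from W44, with an adjusted p of 0.0427. Glyma.08G048900, dehydrin xero 1, had 53.3 and 120.4 RPKM in W43 and 12.3 and 22.2 RPKM in W55, with an adjusted p of 0.0349 against W43 and 0.118 against W44. Glyma.16G031300, an LEA protein, had 28.0 and 252.7 RPKM in W43, 62.7 and 125.0 RPKM in W44, and 6.20 and 17.6 RPKM in W55, and was called against W44 alone, with adjusted p of 0.0371, beside 0.0635 against W43.

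Further lower genes had other roles. Glyma.10G064400, embryonic cell protein 63, had 33.8 and 179.8 RPKM in W43, 47.7 and 63.7 RPKM in W44, and 5.48 and 13.4 RPKM in W55. Glyma.10G189900, a peroxygenase of the type found on oil bodies, was at 33.8 and 175.0 RPKM in W43, 35.0 and 61.0 RPKM in W44, and 5.41 and 11.6 RPKM in W55. Both were called against both references. Glyma.02G042500, a basic chitinase, which attacks fungal walls, had 389.3 and 1044 RPKM in W43 but 150.3 and 160.9 in W44 and 50.3 and 152.1 in W55. It was called against W43, at -2.85 with an adjusted p of 0.0436, and not against W44, at -0.82 with an adjusted p of 0.212. Myo-inositol oxygenase, which opens inositol towards cell wall sugars, was lower through both copies in the class, Glyma.07G013900 at -2.06 and Glyma.08G199300 at -2.13 from W43, with adjusted p of 0.0296 and 0.0313.

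Abundant genes annotated only as glycine-rich proteins were also in the lower group. Glyma.20G011400 had 70.1 and 2046 RPKM in W43, 1835 and 3259 RPKM in W44, and 10.2 and 36.5 RPKM in W55. Its neighbours Glyma.20G011300 and Glyma.20G011500 had 1165 and 1677 RPKM in W43 at 400-500 mg and at most 4.13 RPKM in W55. Glyma.07G176000, of the same description, had 1874 and 5786 RPKM in W43, 4521 and 3200 RPKM in W44, and 379 and 833 RPKM in W55. None of these 4 passed the test against W43, where the 2 weights differ widely, and their adjusted p lay between 0.0837 and 0.150. Against W44, Glyma.20G011400 was lower by 6.90 ± 1.04 (SE) with an adjusted p of 0.0266. All 4 genes had higher values at the later weight in Richland and T157.

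Some genes lower than both references differed little between the 2 weights in Richland and T157. Glyma.13G132500, a nodulin MtN21 transporter of the EamA family, had 44.05 and 50.5 RPKM in W43, 32.3 and 39.8 RPKM in W44, and 10.2 and 13.8 RPKM in W55. The gene next to it by identifier, the undescribed Glyma.13G132600, had 14.5 and 14.3 RPKM in W43 and 3.98 and 5.06 RPKM in W55. Glyma.08G193500, beta galactosidase 1, had 28.6 and 34.0 RPKM in W43, 41.7 and 57.2 RPKM in W44, and 13.3 and 13.9 RPKM in W55. These 3 genes were called against both references, and their values at the 2 weights of W55 differed less than W55 did from any reference library. The undescribed Glyma.06G210200 was also called against both, at -2.99 ± 0.15 (SE) from W43 and -2.75 from W44 with adjusted p by limma of 0.0231 and 0.0139. It had higher values at the later weight in every line, with 17.0 and 35.3 RPKM in W43, 15.5 and 27.3 RPKM in W44, and 1.75 and 2.75 RPKM in W55.

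Genes higher in W55 than in both references had another make-up. Glyma.09G043500, of the Pollen Ole e 1 allergen and extensin family, had 11.9 and 13.0 RPKM in W43, 2.50 and 5.49 RPKM in W44, and 172.6 and 113.8 RPKM in W55. The difference was 3.39 ± 0.37 (SE) from W43 and 4.89 from W44, with adjusted p by limma of 0.0348 and 0.0159. Its changes with weight in Richland and T157 were -1.19 and -1.46. Glyma.12G217400, a BURP-domain protein of the type found in seed coat walls, had 22.4 and 14.7 RPKM in W43, 13.7 and 8.54 RPKM in W44, and 63.0 and 55.7 RPKM in W55, and its neighbour Glyma.12G217300 had 215.5 and 114.5 RPKM in W55 beside 96.4 and 50.9 in W43. Glyma.18G280900, allene oxide cyclase 4, an enzyme of jasmonate synthesis, had 1.03 and 0.649 RPKM in W43 and 6.81 and 5.35 RPKM in W55. Glyma.14G195000, glutamine-dependent asparagine synthase 1, which makes a transport form of nitrogen, had 7.12 and 7.78 RPKM in W43, 7.17 and 6.67 RPKM in W44, and 30.5 and 18.2 RPKM in W55. All of these were called against both references.

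A second group of higher genes had higher values at the later of the 2 weights in W55. Glyma.08G116400, xylem bark cysteine peptidase 3, a protease, had at most 1.82 RPKM in any reference library and 10.7 and 27.7 RPKM in W55. Its neighbour Glyma.08G116300 had 65.9 and 142.9 RPKM in W55 and at most 9.60 RPKM in any reference library, with an adjusted p by limma of 0.0521 against W43 and 0.0358 against W44. The Kunitz trypsin inhibitors Glyma.01G095000 and Glyma.08G341500, which block digestive proteases, had 9.38 and 22.9 RPKM and 17.6 and 39.7 RPKM in W55, and at most 1.71 and 6.08 RPKM in the references. The cupin Glyma.13G123500 was at 13.6 and 24.2 RPKM in W55 and at most 3.34 RPKM in the references. Glyma.02G012600, a lectin-domain protein kinase, was at 12.7 and 30.9 RPKM in W55 and at most 2.06 RPKM elsewhere. Apart from Glyma.08G116300, these genes were called against both references, with differences from W43 between 3.13 for Glyma.02G012600 and 3.37 for Glyma.08G116400. Kunitz inhibitors and cupins include proteins abundant in embryos, so lists chosen as embryo markers are given here. The summed RPKM of 13 oleosins, proteins of embryo oil bodies, was 626.8 and 470.7 in W43, 259.5 and 192.7 in W44, and 369.2 and 439.2 in W55. W55 lay above W44 and below W43 at each weight. Against W43, 3 oleosins were called lower and none higher, and against W44, 4 higher and none lower. Cupin and cruciferin genes summed to 3371 and 2328 RPKM in W43, 1014 and 786 RPKM in W44, and 1935 and 2520 RPKM in W55, with 5 called higher and 3 lower of 35 against W43, and 17 higher and 2 lower against W44. Genes of the 2S albumin description summed to 1404 and 755.8 RPKM in W43 and 1789 and 1931 RPKM in W55, with 6 higher and 1 lower of 37 against W43, and 16 higher and 1 lower against W44. In deposited values, that list summed to 2304 RPKM in the W54 root and 1891 RPKM in the Richland young leaf. The 2S albumin description is therefore not particular to embryos, and its counts do not speak to embryo RNA. Cupin and cruciferin genes summed to 674.4 RPKM in the W54 root, 825 RPKM in the W55 root and 268.5 RPKM in the Richland leaf, also in deposited values. The late W44 coats had 1038 and 803.7 RPKM on that scale, so this list is not particular to embryos either. Over all genes 3.64% were higher and 3.16% lower than W43, and 11.7% and 10.2% than W44. The summed level of each of these 3 lists was higher in W55 than in W44 at both weights. The part of embryo RNA in the higher genes was not tested. In bulk samples, fewer cells of a type and less RNA per cell cannot be told apart.

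Some genes called against W43 had similar levels in W55 and W44. At least 1 (log2) from W43 and within 0.5 of W44, with at least 5 RPKM in a library, were 98 lower and 33 higher genes, limits chosen after their values were seen. Called against W43 were 859 lower and 990 higher genes, 3.16% and 3.64% of those tested. Of these, 509 lower and 545 higher were not called against W44, which does not show that W55 and W44 were alike there. Sugar carriers of the SWEET family, which export sucrose to the embryo and carry the description nodulin MtN3, held 9 lower and 1 higher of 22 tested genes against W43, beside 3.16% and 3.64% of all genes, with a median difference of -0.71. Against W44 they held 9 higher and 6 lower, beside 11.7% and 10.2% of all genes, with a median of 0.53, so as a family they differed from W44 as well. Glyma.13G041300 had 19.6 and 29.5 RPKM in W43, 3.26 and 5.02 RPKM in W44, and 3.56 and 3.77 RPKM in W55. Glyma.14G160100 had 9.15 and 14.8 RPKM in W43, 2.17 and 3.22 RPKM in W44, and 1.59 and 1.84 RPKM in W55. Both were called against W43, at -2.43 and -2.22, and neither against W44. Glyma.06G166900 differed, with 139.4 and 102.9 RPKM in W43, 22.8 and 16.3 RPKM in W44, and 117.9 and 122.5 RPKM in W55. Glyma.11G069500, laccase 11, an enzyme that oxidises phenolics in walls, had 5.05 and 2.50 RPKM in W43 and at most 0.0396 RPKM in W44 and W55. Lipoxygenase 1 Glyma.07G034800, which oxidises fatty acids, lay between the references, with 2.70 and 1.53 RPKM in W43, 43.5 and 26.5 RPKM in W44, and 22.9 and 11.9 RPKM in W55. It was called higher than W43, at 2.52, and lower than W44, at -0.99 with an adjusted p by limma of 0.0182. In the fit of 12 libraries the difference from W44 was 0.12. The pigment that W44 and W55 share and other differences of these lines from W43 cannot be told apart.

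Other lists are read against shares of 3.64% higher and 3.16% lower over all genes for W43, and 11.7% and 10.2% for W44. Of 548 tested ribosomal protein genes, 20 were called higher than W43, a share near that of all genes, and 2 lower. Of 113 photosynthesis genes, 5 were called higher and 6 lower than W43, and 43 higher and 6 lower than W44. Of 58 secondary wall genes, 4 were called higher and 1 lower than W43, and 19 higher and 2 lower than W44. The photosynthesis genes called lower include 3 annotated as photosystem II reaction center protein A, the D1 protein that plastids normally encode: Glyma.13G028200, for example, had 19.2 and 20.2 RPKM in W43, 2.95 and 4.83 RPKM in W44, and 2.63 and 3.04 RPKM in W55, and copies this alike may share reads. Vascular markers had no call among 11 tested genes against W43, and 6 called higher against W44 with a median of 2.02. Their summed RPKM was 249.6 and 162.3 in W43, 116.9 and 114.7 in W44, and 256.4 and 267.9 in W55, and their part in the differences from W44 was not tested. Of the 4 tested BURP coat markers, 3 were called higher against each reference. The summed RPKM of the list was 276.2 and 274.9 in W43, 276.5 and 195 in W44, and 431.7 and 275.1 in W55. At 400-500 mg the W55 sum was therefore level with that of W43. Among 39 genes of RNA silencing, of which 25 were tested, 2 were called higher and 0 lower than W43, and 0 higher and 4 lower than W44. Of the 2 higher ones, RNA-dependent RNA polymerase 1 (Glyma.02G086100) had 3.84 and 3.73 RPKM in W43, 9.95 and 7.94 RPKM in W44, and 8.74 and 6.95 RPKM in W55. Its difference from W43 was 0.88 ± 0.09 (SE) with an adjusted p by limma of 0.0339. An Argonaute gene, Glyma.02G111600, was higher than W43 by 0.55. Neither gene was called against W44, where the differences were -0.17 and 0.26.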

How the data were processed

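The deposited table holds RPKM values per cDNA model, made by the authors from reads aligned with Bowtie, per the submitters' processing notes; library kits were Illumina TruSeq, per the labels, and a genome build, the treatment of multiply matching reads and the use of strand are stated neither in the labels nor in the file. Values in 38 libraries were whole multiples of 1 read (tolerance 0.01 read), from which library totals were recovered; these count alignments to models, and intervals or floors from them cover counting error only. The longest model stood for each gene. A further 4 columns could not be tied to a sample and were not used. RPKM was rescaled by median ratios over 27180 genes and tested as log2(RPKM + 1) with limma 3.58.1 in R 4.3.3 (trended variance, seed weight as block, mean RPKM of at least 1), with Benjamini-Hochberg adjustment over 27185 genes, and the step was tested on simulated data with 200 altered genes. Maturation medians and scores used all set members, unfiltered. Named genes are the lost genes and their neighbours, the 10 most different in each direction among genes called against W43, abundant chalcone synthases, up to 3 called genes per list (2 most abundant where none was called), and the 5 most rising and falling; genes of the stricter grouping, flavonoid and SWEET genes, the genes with little weight dependence and the 2 left-hand neighbours were added after their values were seen. Members and lists were chosen with earlier results of these data known. Alternatives varied scaling, pseudocount, filter, block, libraries, model choice and thresholds.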

Additional observations from a re-analysis of the deposited data

Results flagged for a closer look

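The genes that decreased with weight in Richland and T157 changed side between the 2 weights. Their median difference between W55 and W43 was -0.86 at 300-400 mg and 0.83 at 400-500 mg. Their median change from the lower to the higher weight was -2.28 in W43 and -0.71 in W55, but 1.18 in W44. With 1 library per line and weight, neither difference was tested.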

How the results depend on the processing

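The number of genes called depended on the libraries kept; 2 residual degrees of freedom remain in the fit to 6 libraries and 1 when a library is left out. Leaving out 1 library at a time gave 0 to 1000 called genes against W43, 0 to 5958 against W44 and 0 to 1730 against the mean of both. Without a filter on low values 1 gene was called against W43 and 1 against the mean, and a filter of 5 RPKM gave 1041 against W43 and 3489 against W44. The fit of 12 libraries gave 6, 57 and 53 in the same order. Its added libraries are early coats of W43 and W44, for which W55 has no match, so differences between those 2 lines in early coats enter its W55 contrasts. In the added W44 coat library of 50-100 mg, 56.2% of alignments fell in models without a description. limma-voom gave 1840 against the mean. Without the replicate block for seed weight, 820, 5014 and 582 genes were called; changes with weight correlated across genes at 0.38 between W43 and W44, and at 0.00 between W44 and W55, so the weight classes do not pair the libraries of W55. Under the remaining scalings, pseudocount and model choice, counts stayed within 1.5 times the main count. Of 123 calls for 77 named genes, 4 changed sign, all in the 12-library fit against W44: -0.08 for Glyma.04G238100, 0.12 for Glyma.07G034800, -0.03 for Glyma.11G024100 and 0.12 for Glyma.13G176300. The 3 lost genes became 7 at a limit of 10%. Among these, Glyma.01G183200 and Glyma.11G059100 lie outside chromosome 8 and had higher values at the later weight in Richland and T157. The count was 9 and 59 when 1 weight alone was used, and 15 when neighbouring calls were counted instead, a rule added after seeing the data. Against W44 in place of W43, mean log2 ratios of chalcone synthase were 0.59 for all genes, -3.42 for the chromosome 8 copies and 2.24 for the chromosome 1 and 11 copies. The falling set's mean over weights, -0.02, became 1.72 for genes that changed by at least 2 and -1.51 against the lighter W43 seeds. The strict grouping held 9 higher and 17 lower genes at a difference of 2, and 70 higher at 1 RPKM. The cause of these shifts was not tested. Late libraries held 93.3 to 116.1 M alignments, and the effect of depth on the calls was not tested.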
